A study of Mus musculus with 6 samples.

Results

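Transcripts of the urea cycle, its mitochondrial carriers and the glutamine enzymes were examined in liver from 6 male BALB/cCrSlc mice, an inbred albino strain. The genes were Cps1, Otc, Ass1, Asl, Arg1, Nags, Slc25a15, Slc25a13, Glul and Gls2. They were chosen for their place in the pathway, with earlier results of these data known. Every probe set annotated to exactly 1 of these 10 symbols was taken, which gave 13 of the 45037 probe sets on the arrays and covered 9 of the 18193 genes measured. Gls2 is not analysed here. One further probe set carries the symbols Ass1 and Gm5424 together, so it counts for neither gene and is described separately below. The 3 mice of the group 6C+4CP ate a diet with 6% casein and 4% collagen peptide of fish origin. The 3 mice of the group 10C ate the control diet with 10% casein and no collagen peptide. Both were low-protein diets on an AIN-93M base, with cornstarch in place of the missing protein. They were eaten for 10 weeks by mice with a starting age of 6 weeks. The livers were taken at 17 weeks of age, once food had been withheld for 3 h. Casein and collagen peptide differ together between the diets, so the effect of one cannot be told apart from that of the other. Each mouse gave 1 Affymetrix array, and the 3 mice of a diet were picked from 12 for medium food efficiency, the weight gained per food eaten.

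The urea cycle turns ammonia, which is toxic, into urea and runs in full mainly in hepatocytes around the portal vein. Carbamoyl phosphate synthetase and ornithine transcarbamylase work inside mitochondria, and the later enzymes, which make argininosuccinate, split it and release urea from arginine, work in the cytosol. Carriers in the inner mitochondrial membrane exchange ornithine for citrulline and export aspartate, while glutaminase releases ammonia from glutamine in periportal cells and glutamine synthetase recaptures what escapes the cycle in the last cells around the central vein. In rodents the enzymes of the cycle are well known to follow protein intake.

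The deposited values are on a log2-like scale. No source used here names the base, so each difference is read as log2 and each ratio rests on that reading. Of the 45037 probe sets, 37246 held practically the same value in all mice, ranging over at most 0.01, and 7791 (17.3%) ranged over more and are called varying. A shared value does not show whether the transcript differed between mice. Among varying probe sets, 10C replicate 3 correlated most closely with 6C+4CP replicate 2 (Pearson r = 0.985 over those probe sets, a description only), above its 0.972 and 0.973 with the other 10C mice. Hepatocyte markers were present in all mice: the 7 measured of 8 had mean values between 11.25 and 14.23. No marker varied among those of cholangiocytes (5 measured), skeletal muscle (4) and pancreatic acini (3). Their mean values all lay between 5.53 and 6.52. Precision is limited by having 3 arrays per diet. Since each array holds a piece of whole liver, fewer cells of a type and less RNA per cell cannot be told apart.

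Livers of 6C+4CP mice had lower mean values than livers of 10C mice at all 9 varying probe sets, and at 8 of them after quantile normalization, which turned 1 Otc probe set to 0.013. The 9 belong to Cps1, Otc, Slc25a15, Asl, Arg1 and Glul. The size ran from -1.04 for Asl, which splits argininosuccinate into arginine and fumarate, to -0.011 for 1 of the Otc probe sets. The median difference over the 9 was -0.15, against -0.0040 over all 7791 varying probe sets, of which 52.1% were lower. The diets did not overlap, and are said below to lie apart, at 4 of the 9, namely at Cps1, Asl, 1 Otc and 1 Glul probe set, all lower in 6C+4CP. Over all varying probe sets the diets lay apart at 19.9%, and at 9.11% with 6C+4CP lower.

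None of these differences passed the test across the array. Limma with Benjamini-Hochberg adjustment over all 45037 probe sets called 0 of the 13 at an adjusted p under 0.05, against a background of 0.242% of probe sets called. Of the 109 calls behind that percentage, 103 were probe sets with a shared value and 6 varied. At an unadjusted p under 0.05 stood 3 of the 13, for which the background was 6.42%. When limma was run on the varying probe sets alone it called 0 of 7791, and 5 of the 9 had an unadjusted p under 0.05, against 14.6% of varying probe sets. For each of the 4 probe sets whose diets lay apart, a two-sided exact permutation test gave p = 0.1, the smallest that 3 against 3 mice allow.

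**Figure D1:**
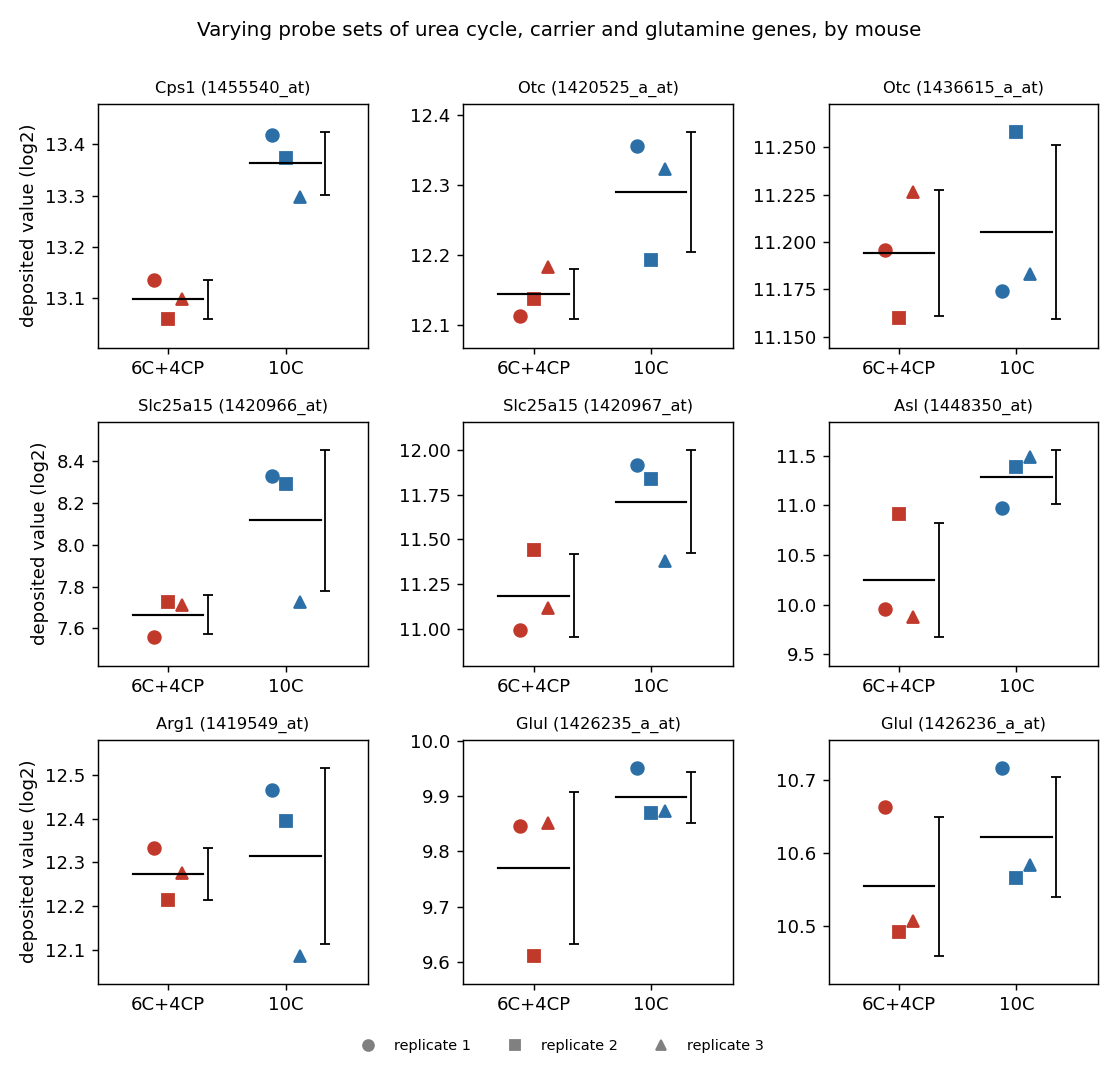
Deposited values (log2, vertical axis) of the 9 varying probe sets in each mouse, with 6C+4CP on the left and 10C on the right of each panel; symbols mark the replicate, lines the mean and bars the SD (n = 3 per diet). The vertical axes differ in span and do not start at 0. The diets lie apart for Cps1, Asl, Otc (1420525_a_at) and Glul (1426235_a_at), and 10C replicate 3 lies at the level of the 6C+4CP mice in both Slc25a15 panels.

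The cycle begins with Nags, which makes N-acetylglutamate, the obligatory activator of carbamoyl phosphate synthetase. Its 1 probe set (1425230_at) held a shared value of 7.96 in all 6 mice, so it gives no information on the diets.

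Cps1, which condenses ammonia with bicarbonate and is the rate-controlling enzyme of the cycle, was measured by probe set 1455540_at. The values were 13.14, 13.06 and 13.10 in the 6C+4CP mice, against 13.42, 13.37 and 13.30 in the 10C mice. All 6C+4CP mice lay below all 10C mice, with a gap of 0.16 between the nearest mice of the diets. The means were 13.10 ± 0.038 in 6C+4CP and 13.36 ± 0.061 in 10C (SD, n = 3 each). The difference of -0.27 (SE 0.041, 95% interval -0.38 to -0.15) corresponds to 0.832 times the 10C level. The difference was small in size but several times the spread within either diet, and it ran from -0.30 to -0.24 as each mouse was left out. Cps1 had the smallest p of the 13 probe sets (limma, unadjusted p = 0.00259), with a Benjamini-Hochberg adjusted p of 0.382 over all probe sets and 0.118 over the varying ones.

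Otc, which joins carbamoyl phosphate to ornithine to form citrulline, was represented by 3 probe sets that did not behave alike. Probe set 1420525_a_at had 12.11, 12.14 and 12.18 in the 6C+4CP mice, against 12.36, 12.19 and 12.32 in the 10C mice. The diets lay apart there by 0.0096 only, because 10C replicate 2 sat next to 6C+4CP replicate 3. The difference was -0.15 (SE 0.053, 95% interval -0.29 to -0.0015, adjusted p = 0.704 by limma). Probe set 1436615_a_at had 11.20, 11.16 and 11.23 in the 6C+4CP mice, against 11.17, 11.26 and 11.18 in the 10C mice. Here the mice of both diets were interleaved, and the difference was -0.011 (SE 0.032, 95% interval -0.099 to 0.077), or 0.013 after quantile normalization. These intervals overlap, and the difference between the probe sets was not tested. The remaining Otc probe set (1425540_at) held a shared value of 7.09.

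The ornithine carrier Slc25a15, which brings ornithine into mitochondria in exchange for citrulline, had the second largest differences of the group after Asl. Probe set 1420967_at had 10.99, 11.44 and 11.12 in the 6C+4CP mice, against 11.92, 11.84 and 11.38 in the 10C mice. Probe set 1420966_at had 7.56, 7.73 and 7.71 in the 6C+4CP mice, against 8.33, 8.29 and 7.73 in the 10C mice. In both, 10C replicates 1 and 2 were the highest, while 10C replicate 3 lay below 6C+4CP replicate 2, by 0.063 and by 0.00012. The differences were -0.53 (SE 0.21, 95% interval -1.10 to 0.050) at 1420967_at and -0.45 (SE 0.20, 95% interval -0.99 to 0.093) at 1420966_at, or 0.694 and 0.733 times the 10C level. Adjusted p was 0.704 for both by limma. Without 10C replicate 3 the differences were -0.69 and -0.64, and the diets then lay apart in both. Without 6C+4CP replicate 2 they were -0.66 and -0.48. The 2 probe sets measure 1 gene and are not independent.

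The aspartate and glutamate carrier Slc25a13, or citrin, exports the aspartate that enters the cycle in the cytosol. Its 1 probe set (1449481_at) held a shared value of 10.39 in every mouse.

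RefSeq promoter sequences (GRCm38.p6) were at hand for Slc25a15, Otc, Glul, Ass1, Nags and Slc25a13, 6 of the 10 genes, with 2 starts for Slc25a15. Shown are the 250 bases before the start, read 5′ to 3′ on the strand of the gene, for the carrier with the wide difference and for Otc. Cps1, the other mitochondrial enzyme with a varying probe set, had no promoter sequence at hand. The lines give the downstream start of Slc25a15 at chr8:22398278-22398527 (minus strand), its upstream start at chr8:22398622-22398871 (minus strand), and Otc at chrX:10252055-10252304 (plus strand). Capitals mark matches to the motifs searched.
Slc25a15, downstream start: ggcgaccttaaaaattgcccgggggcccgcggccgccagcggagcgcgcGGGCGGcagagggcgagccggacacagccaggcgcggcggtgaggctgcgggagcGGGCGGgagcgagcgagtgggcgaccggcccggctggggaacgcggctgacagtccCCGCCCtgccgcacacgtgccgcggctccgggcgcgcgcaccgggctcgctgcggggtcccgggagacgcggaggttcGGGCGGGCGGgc
Slc25a15, upstream start: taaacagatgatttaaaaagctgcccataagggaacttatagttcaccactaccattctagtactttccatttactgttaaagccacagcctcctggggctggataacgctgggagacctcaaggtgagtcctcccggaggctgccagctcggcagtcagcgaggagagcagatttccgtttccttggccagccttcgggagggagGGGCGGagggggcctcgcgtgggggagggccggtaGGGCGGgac
Otc: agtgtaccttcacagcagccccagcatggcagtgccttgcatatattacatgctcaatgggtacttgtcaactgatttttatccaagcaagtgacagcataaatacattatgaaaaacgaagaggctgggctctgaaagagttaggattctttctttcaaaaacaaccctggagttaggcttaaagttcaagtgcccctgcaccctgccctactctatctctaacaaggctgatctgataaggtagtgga

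A set of 8 motifs was searched on both strands: the CCAAT box (CCAAT), the TATA box (TATAAA), the cyclic AMP response element (TGACGTCA) and its short form (TGACG, contained in the full element), the core of the amino acid response element (TGATGNAA), the C/EBP palindrome (TTGCGCAA), the nuclear receptor core site (AGGTCA) and the GC box (GGGCGG). The only matches in the Slc25a15 windows were GC boxes, 5 at the downstream start, 2 of them overlapping, and 2 at the upstream start. A GC box stood in 32.7% of 32817 promoter windows of that length. The Otc window, with 43.6% G and C against 80.4% at the downstream Slc25a15 start, held none of the 8 motifs. The cyclic AMP response element and the amino acid response core were found in 1.55% and 3.45% of all windows and in none of those printed. These matches describe letters only.

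The cytosolic part of the cycle held the largest difference. Asl (1448350_at) had values of 9.95, 10.91 and 9.88 in the 6C+4CP mice, against 10.98, 11.39 and 11.49 in the 10C mice. The 6C+4CP mice all lay below the 10C mice, but 6C+4CP replicate 2 stood far above the other mice of its diet and only 0.062 below 10C replicate 1. The means were 10.25 ± 0.58 in 6C+4CP and 11.29 ± 0.27 in 10C (SD, n = 3 each). The difference of -1.04 (SE 0.36, 95% interval -2.03 to -0.045) corresponds to 0.487 times the 10C level. By limma the adjusted p was 0.704 over all probe sets and 0.248 over the varying ones. Without 6C+4CP replicate 2 the difference was -1.37, and over the omission of each mouse it ran from there to -0.85.

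Ass1, which joins citrulline and aspartate, had 1 probe set of its own (1459937_at), with a shared value of 6.72. The probe set annotated to both Ass1 and Gm5424 (1416239_at) had 9.92, 10.63 and 10.62 in the 6C+4CP mice, against 10.91, 10.37 and 10.92 in the 10C mice. The diets overlapped there, with a difference of -0.35 (SE 0.29, 95% interval -1.14 to 0.44), and the values cannot be assigned to either gene.

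Arg1, liver arginase, which cleaves arginine into urea and ornithine, had values of 12.33, 12.21 and 12.27 in the 6C+4CP mice, against 12.47, 12.39 and 12.09 in the 10C mice (1419549_at). The 10C mice spanned the whole range, with replicate 1 the highest and replicate 3 the lowest of all 6. The difference was -0.042 (SE 0.12, 95% interval -0.37 to 0.28, adjusted p = 0.987 by limma), and it was 0.033 once 10C replicate 1 was left out. Leaving out 10C replicate 3 instead gave -0.16, and leaving out 6C+4CP replicate 2 gave -0.011. An Arg1 change of up to 0.28 upwards or 0.37 downwards on the log2 scale is within that interval.

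**Figure D2:**
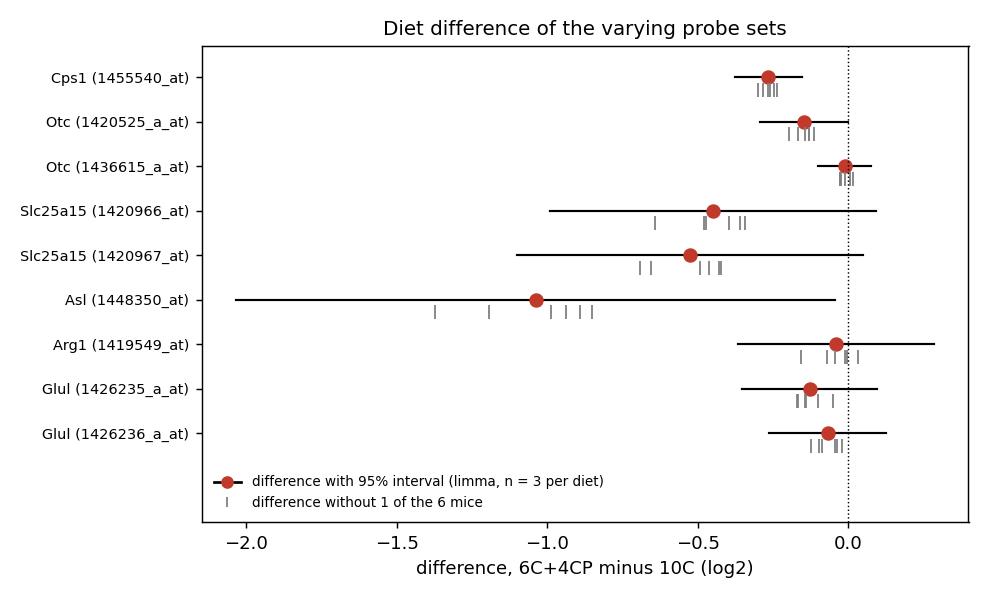
Difference between the diets, 6C+4CP minus 10C in log2 (horizontal axis), for the 9 varying probe sets, with the 95% interval of limma as a line and, below it, the difference without each of the 6 mice as grey marks. All 9 points lie below 0, although Otc (1436615_a_at) stands at 0.013 after quantile normalization; the intervals of Cps1, Asl and Otc (1420525_a_at) end below 0, and the grey marks of Otc (1436615_a_at) and Arg1 cross it.

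Glutamine synthetase, encoded by Glul, binds ammonia to glutamate in the cells around the central vein. Probe set 1426235_a_at had 9.85, 9.61 and 9.85 in the 6C+4CP mice, against 9.95, 9.87 and 9.87 in the 10C mice. The diets lay apart by 0.017, and most of the difference came from 6C+4CP replicate 2: it was -0.13 (SE 0.082, 95% interval -0.35 to 0.097) with all mice and -0.049 without that mouse. Probe set 1426236_a_at had 10.66, 10.49 and 10.51 in the 6C+4CP mice, against 10.72, 10.57 and 10.58 in the 10C mice. Here replicate 1 of both diets was high and the diets overlapped, with a difference of -0.068 (SE 0.071, 95% interval -0.26 to 0.13). Leaving out 6C+4CP mice gave -0.12 (replicate 1), -0.037 (replicate 2) and -0.044 (replicate 3), and leaving out 10C replicate 1 gave -0.021. Adjusted p was 0.853 and 0.882 by limma.

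The mice did not rank alike across the steps. Averaged over the 9 varying probe sets, the deviation from the mean of the 6 mice was -0.19, -0.079 and -0.18 in 6C+4CP replicates 1 to 3, against 0.20, 0.19 and 0.053 in 10C replicates 1 to 3. The diets thus did not overlap in this average, with 6C+4CP replicate 2 and 10C replicate 3 nearest to each other. Otc, Slc25a15 and Glul enter the average with more than 1 probe set each, and the wide deviations of Asl and Slc25a15 weigh most in it. How often an average over other varying probe sets lies apart was not tested. Of the 9 probe sets 10C replicate 1 was the highest mouse at 7, and no 6C+4CP mouse was the highest at any. 10C replicate 3 was the highest of all mice for Asl, yet was below the mean of the 6 mice for Arg1, for both Slc25a15 probe sets, for 1 Otc and for 1 Glul probe set. 6C+4CP replicate 2 was the lowest of all mice for Cps1, for 1 Otc and for both Glul probe sets, yet the highest of its diet for Asl and for both Slc25a15 probe sets.

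**Figure D3:**
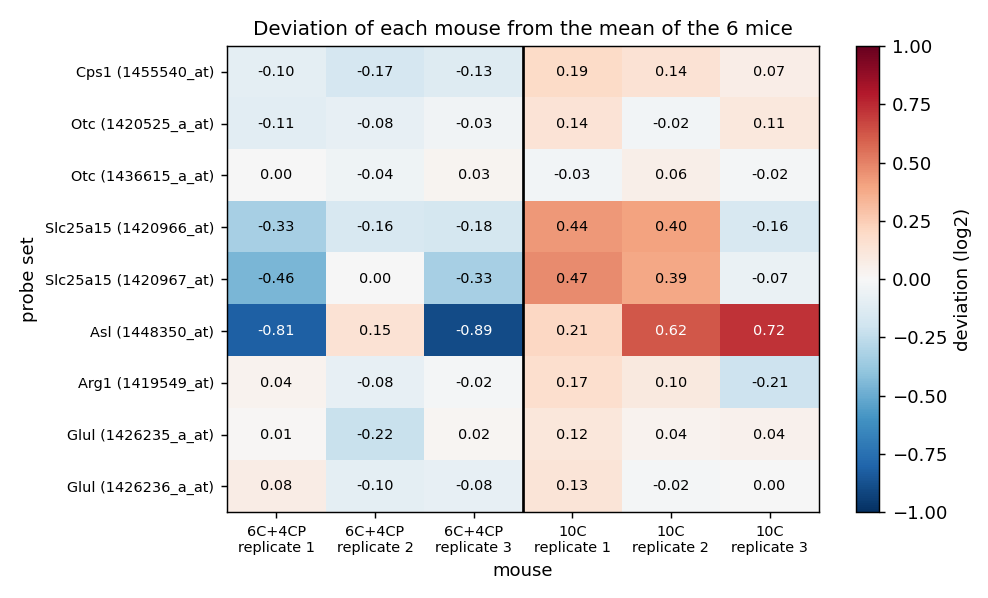
Deviation of each mouse from the mean of the 6 mice (log2, colour and printed number) for the 9 varying probe sets in rows, with the 6C+4CP mice in the 3 left columns and the 10C mice in the 3 right ones. Asl and Slc25a15 carry the widest deviations, and 10C replicate 3 is above the mean for Asl (0.72) and below it for Slc25a15 (-0.16 and -0.067).

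Other genes of ammonia, arginine and glutamate handling went both ways. Of 57 such genes 52 were measured, each by its probe set with the highest mean, and 35 varied, 21 lower and 14 higher in 6C+4CP (20 and 15 after quantile normalization), with a median difference of -0.020. Limma called 0 of the 52 at an adjusted p under 0.05 over all probe sets, against 0.253% of all genes, and 6 had an unadjusted p under 0.05, against 7.18% of all genes. One of these, Asns, held a shared value and is named here after its value was seen. The diets lay apart in 8 of the 35, with 4 lower and 4 higher, against 21.4% of all varying genes.

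Genes of nitrogen entry and transamination were mostly lower, 11 of 13 varying, with a median of -0.083. Over all varying probe sets 52.1% were lower. The 11 ran from -1.22 for Gldc, whose diets overlapped, to -0.020. The 2 higher genes, Tat and Aspg, differed by 0.47 and 0.40, also with overlap. Gldc, Tat and Aspg are named after their values were seen. Got1, cytosolic aspartate aminotransferase, had 8.32, 9.04 and 9.22 in the 6C+4CP mice, against 10.70, 9.67 and 9.54 in the 10C mice. Its difference was -1.11 (SE 0.45), and without 10C replicate 1, which stood far above the rest, it was -0.75. Hal, which releases ammonia from histidine, had 9.31, 9.24 and 9.07 in the 6C+4CP mice, against 9.50, 9.43 and 9.48 in the 10C mice, a difference of -0.26 (SE 0.074). Among genes of arginine and polyamine use 6 of 8 varying were lower, or 5 after quantile normalization. Srm, spermidine synthase, differed by -0.78 (SE 0.37), and by -0.40 without 10C replicate 2. Fh1, fumarate hydratase, which takes up the fumarate that argininosuccinate lyase releases, had 10.95, 11.13 and 10.95 in the 6C+4CP mice, against 11.36, 11.47 and 11.28 in the 10C mice. All 6C+4CP mice were lower, with a difference of -0.36 (SE 0.081).

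Transport genes of this list, which leaves out the member carriers, were mostly higher in 6C+4CP. Of 11 varying, 9 were higher and 2 lower, with a median difference of 0.13. Over all varying probe sets 52.1% were lower. The 9 higher ones differed by 0.026 to 0.31. The member carrier Slc25a15 was lower at both of its probe sets, by -0.53 and -0.45. Slc25a10, the mitochondrial dicarboxylate carrier, had 9.09, 9.11 and 9.07 in the 6C+4CP mice, against 8.78, 8.92 and 8.89 in the 10C mice, a difference of 0.22 (SE 0.045). Slc38a4, an amino acid transporter of the hepatocyte membrane, differed by 0.22 (SE 0.064) and Aqp9, a channel for glycerol and urea, by 0.29 (SE 0.11). Mdh1, cytosolic malate dehydrogenase, was the remaining gene whose diets lay apart and differed by 0.17 (SE 0.081), or 0.11 without 6C+4CP replicate 1. The adjusted p of these 8 genes lay between 0.510 and 0.704 by limma. The test between the transport genes and the enzymes was not made.

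**Figure D4:**
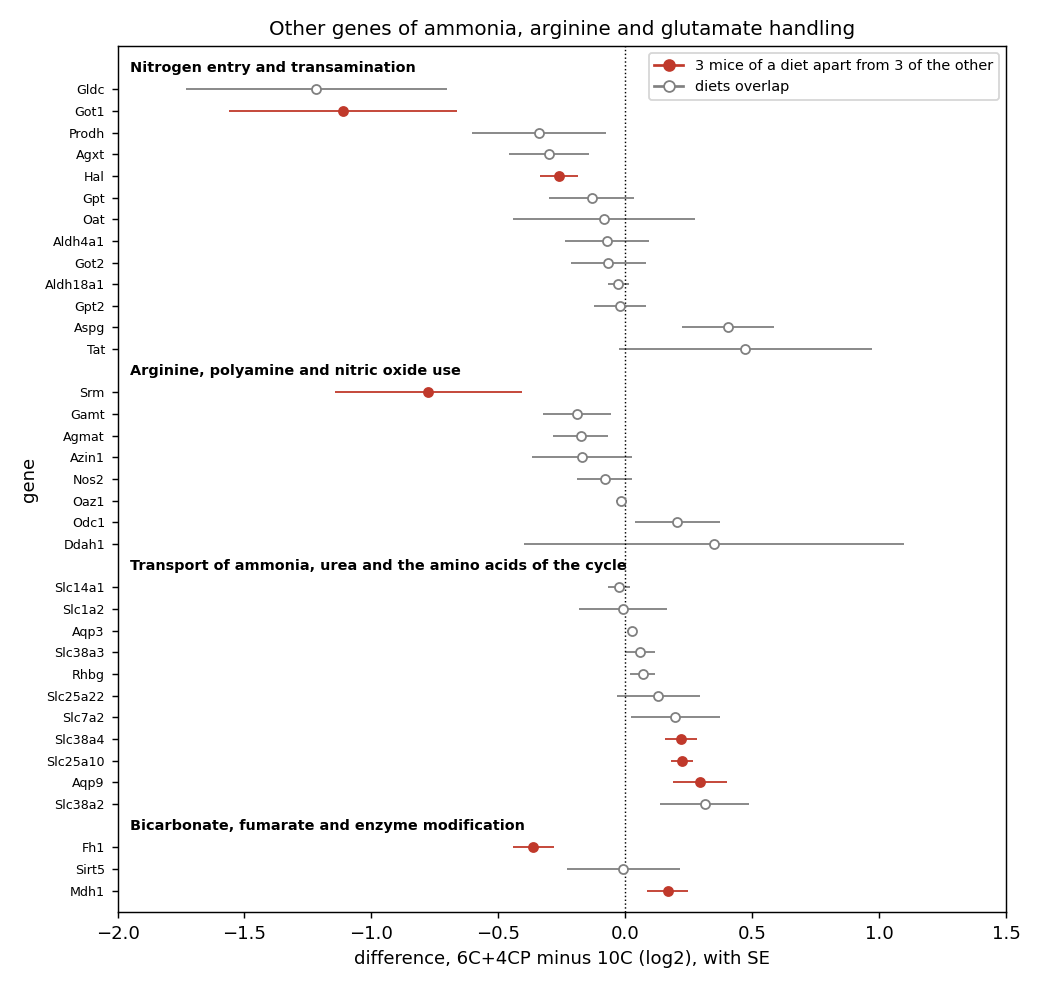
Difference between the diets, 6C+4CP minus 10C in log2 with its SE (horizontal axis), for the 35 varying genes of ammonia, arginine and glutamate handling, by group and sorted within it. Filled red points mark the 8 genes whose diets lay apart; open grey points mark overlap.

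In a list of 20 genes drawn up as regulators of urea cycle and glutamine enzyme genes 14 varied, 10 higher and 4 lower. Ppara, a fatty acid sensing receptor, differed by 0.39 (SE 0.094), Klf15, a regulator of amino acid breakdown, by 0.15 (SE 0.042) and Ctnnb1, the beta-catenin that maintains the pericentral zone, by -0.13 (SE 0.034). In each the diets lay apart, and the adjusted p was 0.572, 0.631 and 0.619 by limma. The diets lay apart in 5 of the 14, with 4 higher and 1 lower, against 21.4% of all varying genes. The others were Hnf4a, also a hepatocyte marker here, with a difference of 0.40 (SE 0.13), and Ddit3, a stress-response factor, with 0.074 (SE 0.027). Limma called 1 of the 20 at an adjusted p under 0.05, against 0.253% of all genes. It was Tcf7l2, which held a shared value with a range of 1e-09, so that call gives no information on the diets. Ddit3 and Tcf7l2 are named after their values were seen.

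Markers of the hepatocyte zones were set beside these genes, since urea synthesis and glutamine synthesis lie in different zones. Of 9 measured periportal markers all varied, 6 lower and 3 higher in 6C+4CP (5 and 4 after quantile normalization), and the mean over the list lay between 10.42 and 10.50 in 6C+4CP mice, against 10.46 and 10.70 in 10C mice. The diets lay apart in 2 lower and 1 higher periportal markers, against 21.4% of all varying genes. The members with the smallest p were Hsd17b13 with a difference of 0.20, Hal with -0.26 and Etnppl with -0.77. Of 12 measured pericentral markers 8 varied, 6 lower and 2 higher, and the mean over the list lay between 8.765 and 8.999 in 6C+4CP mice, against 9.11 and 9.28 in 10C mice. Without Cyp7a1, a choice made after seeing the data, the mean over the other 11 lay between 8.98 and 9.20 in 6C+4CP mice, against 9.13 and 9.28 in 10C mice, and the diets overlapped. The difference of the list mean was -0.089 without Cyp7a1 and -0.27 with it. That list holds Cyp7a1, with a difference of -2.31, Gulo with -0.40 and Cyp1a2 with -0.50. Among its 8 varying markers the diets lay apart in 2 lower and 0 higher ones, against the same 21.4%. Of the 7 measured general hepatocyte markers 6 varied, 4 lower and 2 higher in 6C+4CP. The diets lay apart in 2 lower and 2 higher ones, against 21.4% of all varying genes. By smallest p they were led by Apoa1 with a difference of -0.11, Ahsg with -0.074 and Hnf4a with 0.40. Kupffer cell markers were lower in 5 of 6 varying members and the diets overlapped in all 6, where 21.4% of all varying genes lay apart. In sinusoidal endothelium 1 of 7 measured markers varied, in stellate cells 3 of 7 and in erythroid cells 1 of 3, all with overlap. Of 5 kidney and gut markers 2 varied, both higher in 6C+4CP. The diets lay apart for Lgals4, with a difference of 0.76, and overlapped for Fabp2, with 0.12. The part of these lists in the differences of the urea cycle genes was not tested.

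The genes most like Asl in their pattern of values over the mice were sought among 2203 named probe sets ranging over more than 0.5. By Pearson correlation over the 6 mice these were Selenbp1 (r = 0.993), Rnf103 (0.988), Tpst1 (0.987), Cyp7a1 (0.986) and Tmem19 (0.980). Selenbp1 had 10.90, 11.63 and 10.76 in the 6C+4CP mice, against 11.53, 12.01 and 12.05 in the 10C mice, so it shared with Asl the high 6C+4CP replicate 2. Cyp7a1, which starts the main route of bile acid synthesis, had 6.38, 7.82 and 6.04 in the 6C+4CP mice, against 8.66, 9.18 and 9.34 in the 10C mice. With 6 points, the best of 2203 such correlations are a description only.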

How the data were processed

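Liver RNA of 6 mice, 3 per diet, was measured on 1 array each, from 100 ng of total RNA labelled with an Affymetrix 3' IVT Express kit, per the labels' protocols. The deposited table gives the authors' processed value per probe set and array on a log2-like scale. R 2.7.2 was used, per the submitters' processing notes. Background correction, probe summarisation and the log base were not given in the sources used here. Values were used as deposited, leaving out 64 of 45101 probe sets as controls. GEO's platform annotation gave 1 symbol for 34945 of the 45037 tested, several for 932 and none for 9160. Under R 4.3.3, limma 3.58.1 fitted diet alone by lmFit and eBayes (two-sided) over all probe sets. A check on simulated data required only a small mean bias of the difference and set no condition on the calls. Differences are 6C+4CP minus 10C, and a gene outside the members is represented by its probe set with the highest mean.

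The members and the lists were chosen with earlier results of these data known. The text names every member and every other nitrogen gene whose diets lay apart. Of the regulator, hepatocyte, periportal and pericentral lists it names the 3 genes with the smallest p among those that vary. From the remaining marker lists only Lgals4 and Fabp2 are named. The replicate numbers were not taken as pairs. Deviations of same-numbered mice correlated at 0.478, -0.089 and 0.085, and those of different-numbered mice at -0.57 to 0.40. These values do not settle whether the numbers mark pairs. Alternatives tried were a replicate block, omission of each mouse, quantile normalization, median centring, fits to the varying or to the brighter probe sets (above the median) only, a variance trend with robust estimation, a range over 0.1 as varying, and a gene's mean over its probe sets.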

Additional observations from a re-analysis of the deposited data

How the results depend on the processing

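The count of 0 called among the 13 probe sets was 0 under all 12 other fits tried, which included the replicate block (0 called) and the fit to varying probe sets. The replicate block moved the calls over all probe sets to 3, against 109. Other fits gave 1 call with quantile normalization, 0 with median centring, 0 on varying probe sets, 0 on the brighter probe sets and 0 with a trend and robust estimation, and 285 to 398 without a mouse; 103 of the 109 were shared values. The adjusted p of Cps1 ran from 0.118 to 1.0 and that of Asl from 0.248 to 1.0. Probe sets whose diets lay apart numbered 4 to 7 of 9 as each mouse was left out, with 7 without 10C replicate 3 and 6 when 6C+4CP replicate 2 was omitted. Over all varying probe sets the share apart was 27.1% to 37.7% as each mouse was left out, against 19.9% with all mice, and it was 37.7% and 32.9% in those omissions; fewer mice make separation more frequent by construction. Probe sets lying apart numbered 3 of 9 with quantile normalization and 5 of 9 with median centring. With a range over 0.1 as varying they numbered 4 of 8. The share over all varying probe sets is not given for these settings, so these counts have no background. The median difference ran from -0.20 to -0.11 as each mouse was left out. Of 108 refits of single probe sets 104 kept direction and side of the threshold and 4 reversed, at differences near 0. The Otc probe set 1436615_a_at turned to 0.0058 without 6C+4CP replicate 2, to 0.015 without 10C replicate 2 (range over mice left out -0.027 to 0.015) and to 0.013 with quantile normalization, and Arg1 to 0.033 without 10C replicate 1 (range -0.16 to 0.033). Among the other nitrogen genes 0 were called in all fits except without 6C+4CP replicate 1, where 1 was (range 0 to 1); it was Slc38a5, named after its value was seen, which held a shared value of 5.95. The cause of these changes was not tested.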
